A study of Mus musculus with 36 samples.

Results

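The apolipoprotein L genes are 1 family of the 54532 genes counted in bone-marrow-derived macrophages (BMDMs). Apolipoprotein L proteins are helical, membrane-associated proteins that resemble proteins of the BCL2 group, and the best known member in humans is a serum factor that kills trypanosomes. In mice the family forms a cluster of closely related genes on chromosome 15, and several of them are induced by interferon and by bacterial products. Apol9a and Apol9b are known as interferon-induced genes with antiviral activity. Apol7c has been linked to damage of phagosome membranes in dendritic cells. Little is known of Apol6, Apol8 and Apol10b in macrophages.

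The 9 genes described here are the rows of the count table named Apol6, Apol7a, Apol7b, Apol7c, Apol7e, Apol8, Apol9a, Apol9b and Apol10b. The family was selected on a readout: Apol7c was chosen because its level with LPS and CCM was lower than with LPS alone in both genotypes. The values of that comparison are therefore given as a description, without a test. A closing count of members past the threshold there shows only how it moved with processing and is not a result. The table holds 6 other rows named Apol, of which Apol10a, Apol11a and Apol10c-ps were listed at 0 counts in 36 of 36 libraries. Apol11b had 4 counts in all, Apol7d had 17, and Apold1, a gene on chromosome 6, had 253.

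Macrophages were grown from the bone marrow of adult female C57BL/6 mice with macrophage colony-stimulating factor. WT cells (n = 3) carried floxed Bmal1 alleles without Cre, and KO cells (n = 6) carried the same alleles with LysM-Cre, which is active in myeloid cells. The floxed alleles were thus shared by all groups. Cells of both genotypes received DMSO vehicle, 100 µM CCM, 100 nM LPS or both agents for 6 h, which gave 36 libraries. LPS is a component of the bacterial cell wall that activates macrophages through Toll-like receptor signalling. CCM (Core Circadian Modulator) is a small molecule made to bind the PASB domain of the clock protein BMAL1. CCM was compared with vehicle, and LPS+CCM with LPS, to ask how the compound changed gene expression at rest and during the inflammatory response.

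Libraries held 13469262 to 28288923 counts, with a median of 19951421. Arntl, the gene that encodes BMAL1, stood at 7.28 to 12.9 counts per 1000000 (CPM, with totals scaled by TMM factors) in WT libraries and at 2.13 to 10.7 CPM in libraries labelled KO. In vehicle the KO against WT difference of Arntl was -0.34 on the log2 scale (SE 0.262, edgeR adjusted p = 1). A count over the whole gene also takes in exons outside a floxed part, so it does not check the deletion, and KO stands here for the libraries so labelled. The 8 macrophage markers examined, among them Csf1r at 1296 to 2303 CPM and Lyz2 at 5917 to 15062 CPM, were present in each library. KO replicate 6 stood apart from the other KO replicates. Its scaling factor was 0.749 with LPS against 0.856 to 0.914 in the other 5 libraries of that group. The LPS and LPS+CCM values that it moved are given with and without it.

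The members lie within 712 kb of chromosome 15 (GRCm38), from Apol6 at chr15:77044729-77057106 on the plus strand to Apol8 at chr15:77747798-77757003 on the minus strand. Apol9a (chr15:77403789-77411135) and Apol7c (chr15:77524852-77533316) lie on the minus strand, and Apol9b (chr15:77729039-77736382) lies on the plus strand. All 9 are annotated as protein-coding. The intervals of Apol6, Apol7a, Apol7b and Apol7e overlap other annotated genes, and whether counting used strand is not given in the sources used here, so their counts are uncertain. Family members also resemble each other in sequence. Of the 50-base windows in the annotated transcripts, 72.4% in Apol7b and 74.1% in Apol7e also occurred in another gene, most often in each other. The share was 52.3% in Apol9b and 16.5% in Apol9a, most often shared between them, 25.6% in Apol7c, most often with the neighbour Gm8221, and 0% in Apol8. How many read pairs were lost or misplaced through these windows was not tested.

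**Figure D1:**
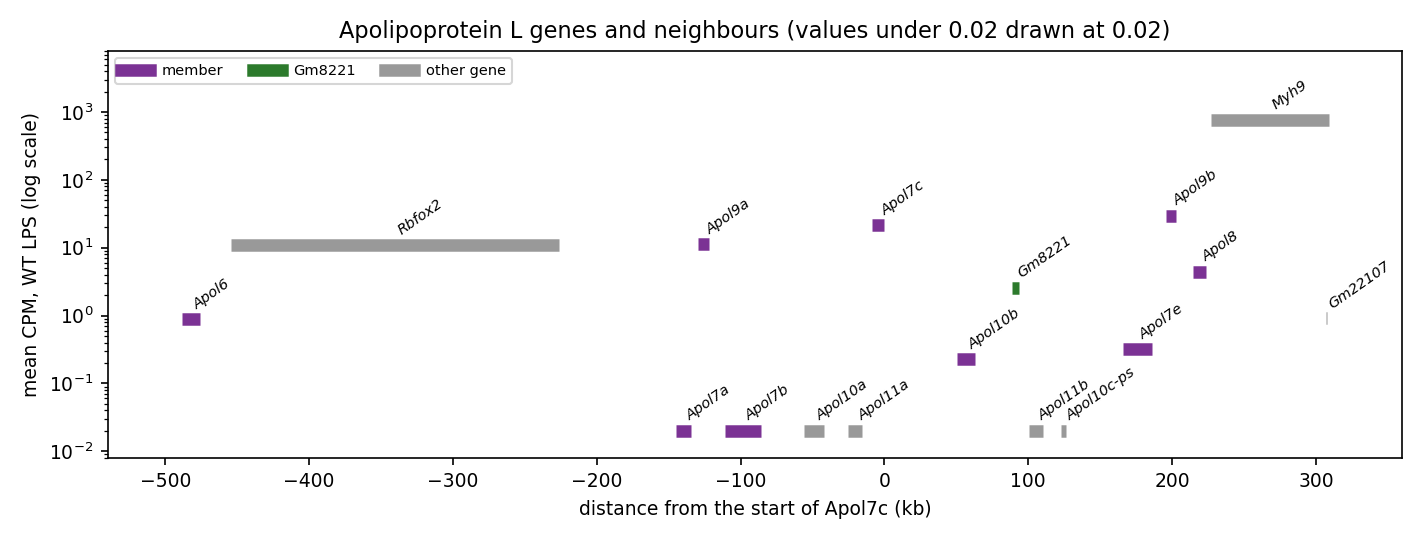
Positions of the apolipoprotein L genes (purple), Gm8221 (green) and other neighbours that passed the filter or are named Apol (grey) (horizontal axis, distance in kb from the start of Apol7c) against their mean CPM in WT LPS libraries (vertical axis, log scale, n = 3, values under 0.02 drawn at 0.02). Each bar spans 1 gene. Apol9b and Apol7c were the highest members at 29.6 and 21.3 CPM, and Gm8221, between Apol7c and Apol9b, stood at 2.53 CPM.

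Promoter sequences were found for 8 of the 9 members (RefSeq, GRCm38.p6, 250 bases before to 50 bases after the start), with none for Apol6. Those of Apol7c and Apol9b are shown as the members with the highest levels under LPS, those of Apol7b and Apol7e as a nearly identical pair, and that of Apol8 as the leading member at rest. Capitals mark matches to an interferon-stimulated response element (ISRE) core GAAANNGAA, an NF-kB core GGAANNNCC or an AP-1 site TGANTCA on either strand. The first is a sequence bound by interferon-activated factors, and the others are bound by factors that inflammatory signals activate. Each line runs 5′ to 3′ along the gene's strand. Positions are counted from base 1 at the start, with -1 just before it.
Apol7c promoter, chr15:77533266-77533565, minus strand: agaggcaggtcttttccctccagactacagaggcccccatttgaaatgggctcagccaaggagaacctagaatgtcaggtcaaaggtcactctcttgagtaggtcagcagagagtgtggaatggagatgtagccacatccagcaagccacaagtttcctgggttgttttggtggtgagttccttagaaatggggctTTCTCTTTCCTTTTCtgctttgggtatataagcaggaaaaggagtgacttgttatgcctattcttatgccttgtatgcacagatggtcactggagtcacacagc
Apol7e promoter, chr15:77698639-77698938, plus strand: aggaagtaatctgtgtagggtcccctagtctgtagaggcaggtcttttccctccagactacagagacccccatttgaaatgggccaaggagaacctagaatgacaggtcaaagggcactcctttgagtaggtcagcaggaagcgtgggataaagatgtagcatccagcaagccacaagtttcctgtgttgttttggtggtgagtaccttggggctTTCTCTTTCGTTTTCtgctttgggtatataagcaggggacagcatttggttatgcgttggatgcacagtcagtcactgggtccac
Apol7b promoter, chr15:77447411-77447710, minus strand: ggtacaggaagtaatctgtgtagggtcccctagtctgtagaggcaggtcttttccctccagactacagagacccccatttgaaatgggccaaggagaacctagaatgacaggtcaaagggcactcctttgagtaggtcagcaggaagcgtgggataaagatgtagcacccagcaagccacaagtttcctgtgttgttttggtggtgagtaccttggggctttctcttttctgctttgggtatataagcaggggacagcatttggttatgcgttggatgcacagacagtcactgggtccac
Apol9b promoter, chr15:77728822-77729121, plus strand: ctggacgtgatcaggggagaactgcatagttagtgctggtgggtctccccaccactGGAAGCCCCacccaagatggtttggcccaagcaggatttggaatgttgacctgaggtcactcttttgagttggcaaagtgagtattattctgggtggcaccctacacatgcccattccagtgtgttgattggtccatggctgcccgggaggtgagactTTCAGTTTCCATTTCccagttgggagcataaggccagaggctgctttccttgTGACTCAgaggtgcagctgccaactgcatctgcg
Apol8 promoter, chr15:77756961-77757260, minus strand: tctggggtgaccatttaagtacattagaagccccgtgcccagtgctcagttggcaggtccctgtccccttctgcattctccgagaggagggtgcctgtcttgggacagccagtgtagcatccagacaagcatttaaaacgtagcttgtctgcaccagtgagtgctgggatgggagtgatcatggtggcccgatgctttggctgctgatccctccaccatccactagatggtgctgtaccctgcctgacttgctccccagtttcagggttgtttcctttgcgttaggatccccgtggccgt

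The ISRE core was found in 5 of 8 member promoters (Apol7c, Apol7e, Apol9a, Apol9b and Apol10b) and in 8.56% of the 32851 mouse promoters of this length. In Apol7c a pair of overlapping matches began at -54 and -48, and in Apol9b a pair began at -36 and -30. The Apol9a promoter was identical to that of Apol9b over 278 bases, with the pair at -58 and -52. The NF-kB core was found in 3 of 8 (18.5% of all promoters) and the AP-1 site in 2 of 8 (7.81%), in both cases including Apol9a and Apol9b. An E-box CACGTG, the site of the BMAL1 and CLOCK pair, was found in 0 of 8 (7.15% of all) and the GAS element TTCNNNGAA in 0 of 8 (8.3%). The exact TATA box letters TATAAA were found in 0 of 8 (13.6%). The promoters of Apol7b, Apol7c and Apol7e hold tatataag before the start, which those exact letters miss, so other forms of the box were not counted. The promoters of Apol7b and Apol7e were 97.7% identical, and their alignment left 1 gap of 5 bases in Apol7b, opposite bases -30 to -26 of Apol7e, where the ISRE core matches of Apol7e lie. Matches of letters are a description of these windows and not bound sites.

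At rest the family was weakly expressed, and Apol8 led it. The 9 genes together reached 5.39 ± 2.08 CPM (SD, n = 3) in WT vehicle and 6.23 ± 2.18 CPM (SD, n = 6) in KO vehicle. Apol8 supplied 54.5% ± 2.6 (SD, n = 3) of these counts in WT and 50.6% ± 12.4 (SD, n = 6) in KO. Per length, Apol8 stood at 1 CPM per kb in WT vehicle, ahead of Apol7c at 0.499, Apol9b at 0.211 and Apol9a at 0.0782 CPM per kb. In this order the ranges of Apol8 and Apol7c overlapped, as did those of Apol7c and Apol9b, whereas Apol9b lay above Apol9a per kb in every WT vehicle library. That step rests on the gene model lengths of 1821 bases for Apol9b and 5953 bases for Apol9a. Their counts in these libraries were similar, at 14, 5 and 14 for Apol9b and 13, 10 and 16 for Apol9a. The remaining 5 members stood at 0.0569 CPM per kb or less, and their ranges overlapped from one to the next.

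With LPS the family rose and its order changed. The 9 genes together reached 68 ± 5.26 CPM in WT (SD, n = 3) and 73.8 ± 19.7 CPM in KO (SD, n = 6), or 66 ± 5.26 CPM in KO without replicate 6 (SD, n = 5). Per length, Apol9b now led WT libraries at 16.3 CPM per kb, followed by Apol7c at 10.3, Apol9a at 1.88, Apol8 at 1.49 and Apol6 at 0.197 CPM per kb. The ranges of Apol9a and Apol8 overlapped, and the other steps of this order down to Apol6 did not. The same 5 genes stood in the same order in KO LPS libraries. The share of family counts from Apol8 was 6.45% ± 0.911 in WT LPS (SD, n = 3), and that from Apol9b was 43.7% ± 2.68 (SD, n = 3).

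**Figure D2:**
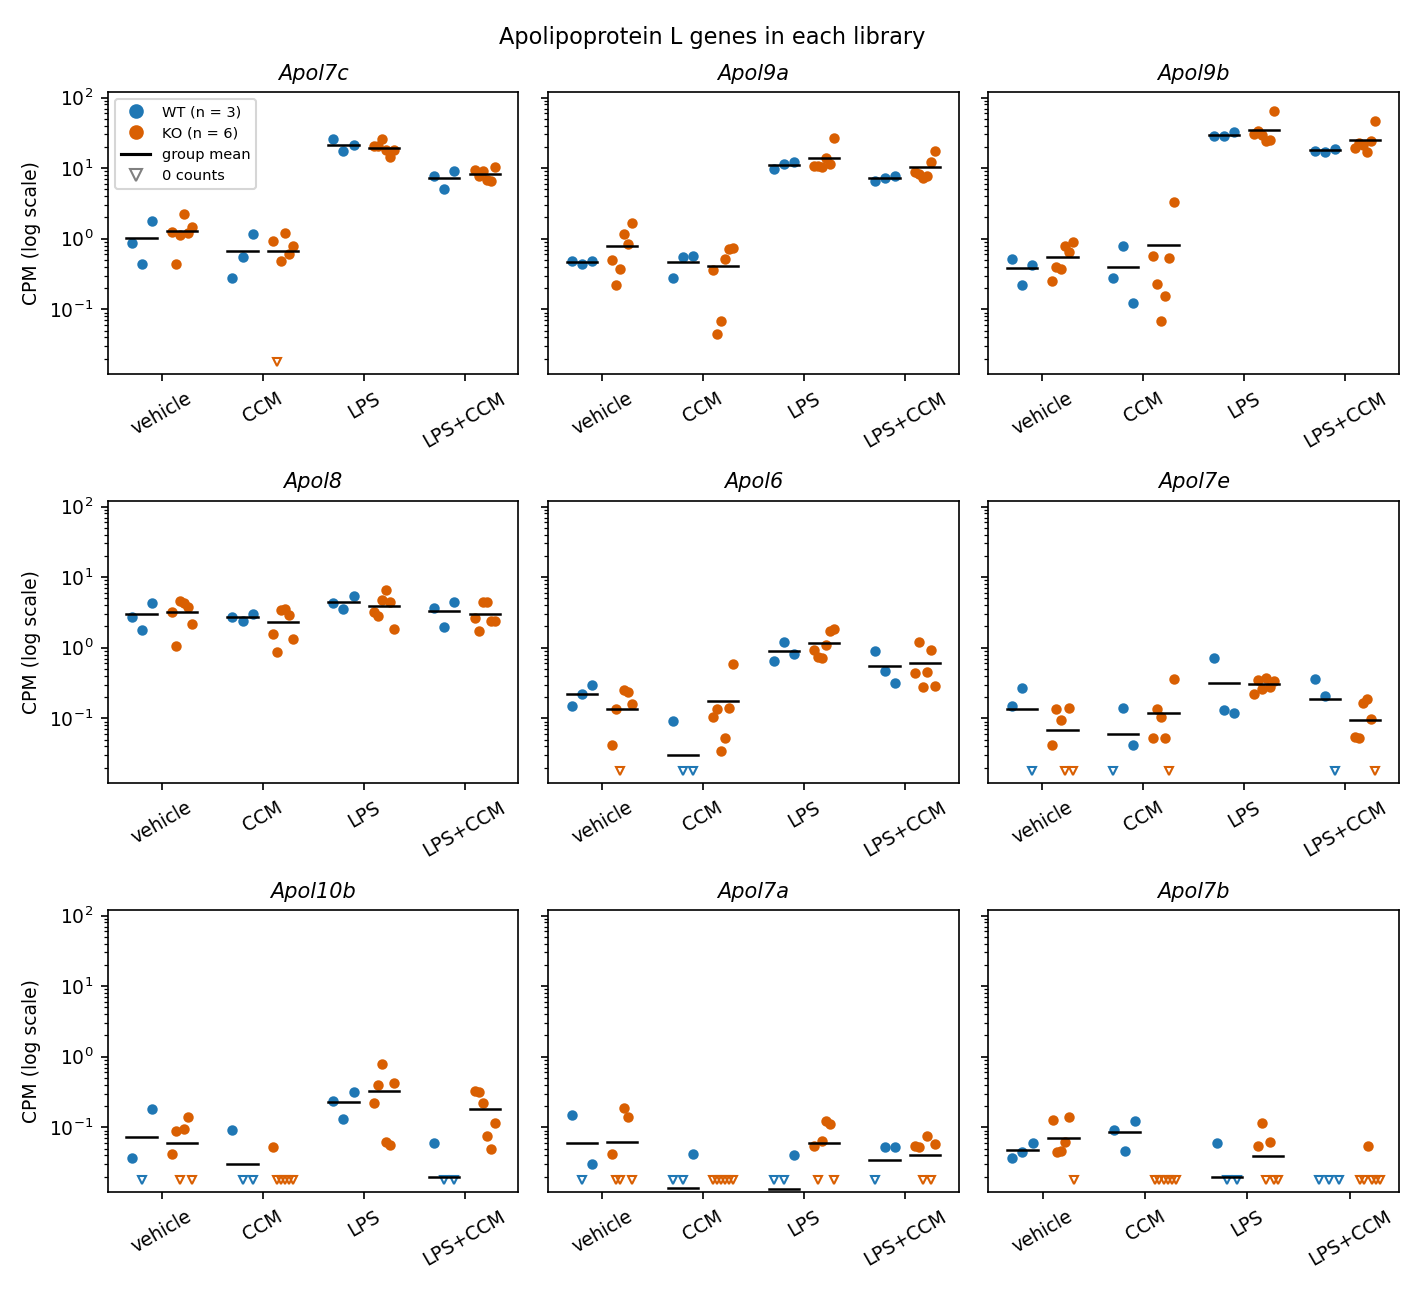
CPM of each apolipoprotein L gene (vertical axes, log scale) in each library of the 4 treatments, in WT (blue, n = 3) and KO (orange, n = 6). Points are libraries, open triangles are libraries with 0 counts, and black lines are group means above 0.013 CPM. Apol7c, Apol9a and Apol9b stand apart between unstimulated and LPS-treated groups, Apol8 stays between 0.857 and 6.65 CPM, and Apol7a and Apol7b stay near 0.

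Apol9b showed the largest LPS response of the 5 members tested. Its WT vehicle libraries stood at 0.515, 0.221 and 0.418 CPM and its WT LPS libraries at 28.2, 28.3 and 32.5 CPM. In KO it stood at 0.252 CPM at the lowest, 0.525 at the median and 0.884 at the highest in vehicle, and at 24.3, 30 and 63.6 CPM with LPS. In both genotypes each LPS library lay above each vehicle library. The log2 fold change was 6.22 (SE 0.186, adjusted p = 1.3e-09) in WT and 5.96 (SE 0.367, adjusted p = 2.16e-08) in KO by edgeR's quasi-likelihood test with Benjamini-Hochberg adjustment over all genes tested. Without KO replicate 6, the KO value was 5.78 (SE 0.192). In WT, Apol9b passed the filter on low counts only through the LPS libraries, so that it was tested goes with its being higher there.

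Apol9a, its near neighbour in sequence, rose as well. WT vehicle libraries stood at 0.478, 0.442 and 0.478 CPM and WT LPS libraries at 9.74, 11.5 and 12.3 CPM. KO libraries ran from 0.223 through a median of 0.669 to 1.69 CPM in vehicle and from 10.5 through 11.3 to 26.9 CPM with LPS. The groups did not overlap in either genotype. The log2 fold change was 4.57 (SE 0.194, edgeR adjusted p = 1.65e-08) in WT and 4.17 (SE 0.449, edgeR adjusted p = 4.65e-06) in KO. Without KO replicate 6 the KO value was 4.13 (SE 0.284). When counts of Apol9a and Apol9b were summed as 1 feature, it was 5.56 (SE 0.138) in WT and 5.18 (SE 0.41) in KO.

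The 2 genes did not rise in proportion. The ratio of Apol9b to Apol9a counts was 1.08, 0.5 and 0.875 in WT vehicle libraries and 2.89, 2.47 and 2.64 in WT LPS libraries, so LPS libraries did not overlap with vehicle libraries. In KO it ran from 0.5 through a median of 0.718 to 1.8 in vehicle and from 1.74 through 2.57 to 3.04 with LPS, and here the highest vehicle library reached the lowest LPS library. The mean log2 ratio (0.5 added to each count) was 1.62 higher with LPS than with vehicle in KO, by an exact two-sided permutation test p = 0.00216 (n = 6 per group), the smallest p that 6 against 6 can give. It was 1.52 higher without KO replicate 6. In WT it was 1.75 higher, with an exact two-sided permutation p = 0.1, the smallest that 3 against 3 can give (n = 3). This ratio was chosen after its values were seen. The vehicle ratios rest on 5 to 38 counts per gene and library. The gene model of Apol9a, at 5953 bases, is also longer than that of Apol9b, at 1821 bases. Whether that length enters the ratio was not tested.

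**Figure D3:**
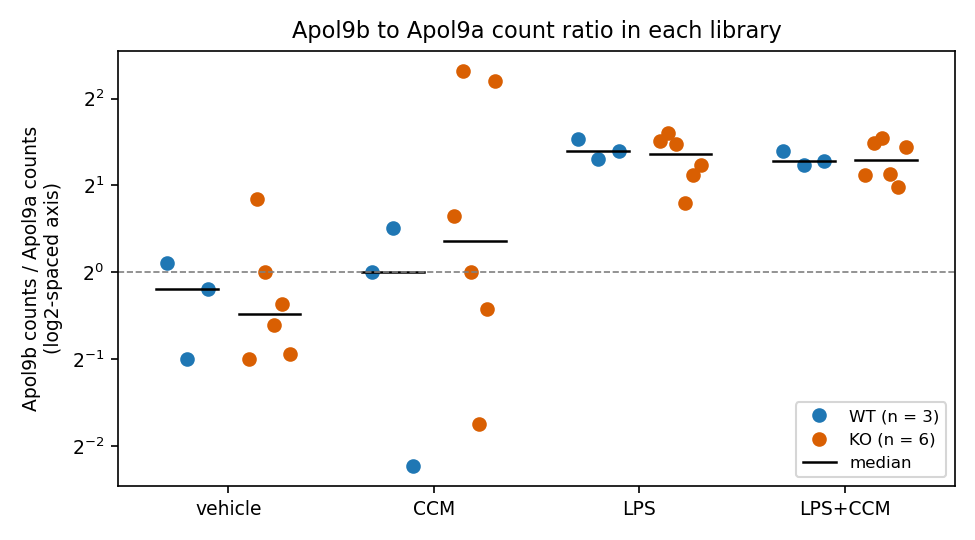
Ratio of Apol9b to Apol9a counts in each library (vertical axis, log2-spaced) by treatment and genotype (WT blue, n = 3, KO orange, n = 6), with black lines at the medians. WT medians are 0.875 in vehicle and 2.64 with LPS, KO medians are 0.718 and 2.57, and the wide spread with CCM alone rests on 1 to 46 counts per gene.

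Apol7c rose with LPS to about the same level in both genotypes. WT vehicle libraries stood at 0.882, 0.442 and 1.76 CPM, and WT LPS libraries stood at 25.5, 17.4 and 21 CPM. KO libraries ran from 0.445 through a median of 1.23 to 2.24 CPM in vehicle and from 14.3 through 19.3 to 25.5 CPM with LPS. Neither genotype showed overlap between vehicle and LPS. The log2 fold change was 4.29 (SE 0.33, edgeR adjusted p = 1.62e-06) in WT and 3.89 (SE 0.294, edgeR adjusted p = 1.54e-07) in KO.

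Apol6 rose from a far lower level. Its WT libraries held 4, 5 and 10 counts in vehicle and 11, 28 and 20 counts with LPS. Its KO libraries held 0 to 8 counts in vehicle and 11 to 31 counts with LPS. Each LPS library lay above each vehicle library in CPM. The log2 fold change was 1.97 (SE 0.426, edgeR adjusted p = 0.00243) in WT and 3.02 (SE 0.501, edgeR adjusted p = 0.000222) in KO, or 2.86 (SE 0.492) without KO replicate 6. Apol6 passed the filter on low counts only through the LPS libraries, so that it was tested here goes with its being higher there. Apol6 overlaps the myoglobin gene Mb on the other strand.

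Apol8, the leading member at rest, did not pass the test with LPS. WT libraries stood at 2.76, 1.81 and 4.36 CPM in vehicle and at 4.37, 3.5 and 5.38 CPM with LPS, and the groups overlapped. KO libraries ran from 1.07 to 4.62 CPM in vehicle and from 1.87 to 6.65 CPM with LPS. The log2 fold change was 0.55 (SE 0.307, edgeR adjusted p = 0.144) in WT and 0.29 (SE 0.355, edgeR adjusted p = 0.557) in KO. The WT value passed without WT vehicle replicate 3, at 0.96 (edgeR adjusted p = 0.00957). It also passed with the replicate number as a block, at 0.61 (edgeR adjusted p = 0.0215). The KO value was -0.09 when libraries were scaled by their total counts alone.

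The 4 remaining members stayed near the counting floor. Apol7e had 10 counts over 3 WT vehicle libraries and 18 over 3 WT LPS libraries, and in KO it had 0 to 3 counts per vehicle library and 4 to 6 per LPS library. Apol10b had 0 to 3 counts per KO vehicle library and 1 to 12 per KO LPS library. Apol7a had 30 counts and Apol7b 26 counts over the 36 libraries, with 6 counts at most in 1 library. These genes did not pass the filter on low counts and have no main test. In KO, DESeq2 and edgeR without a filter called Apol7e and Apol10b higher with LPS, at log2 fold changes of 2.17 and 2.34 by DESeq2 (adjusted p = 0.00508 and 0.0181).

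Apol6 in both genotypes and Apol9b in WT passed the filter only with the LPS libraries and not in the comparison of CCM with vehicle, so their calls are not set against those of all genes. Of the members that also passed without LPS libraries, Apol7c and Apol9a were called higher in WT and Apol8 was not, and Apol7c, Apol9a and Apol9b were called higher in KO and Apol8 was not. Among all genes tested, 30.6% were called higher in WT and 22.4% in KO. Without KO replicate 6, 4509 of 13844 genes tested were called higher in KO. With the replicate number as a block, which paired the KO libraries of this comparison, 9774 rather than 6433 genes were called in KO, and no call of a member changed. Scaling by total counts moved the median log2 fold change of all genes from -0.05 to -0.47 in WT and from -0.05 to -0.44 in KO. Under that scaling Apol9b stood at 5.81 in WT and 5.53 in KO.

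**Figure D4:**
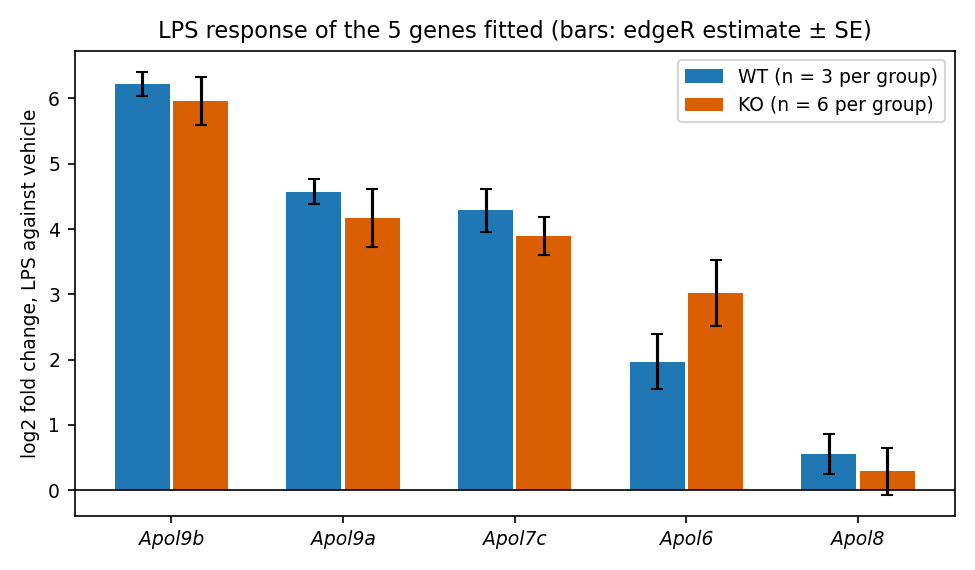
Log2 fold change with LPS against vehicle (vertical axis) for the 5 apolipoprotein L genes that passed the filter, in WT (blue, n = 3 per group) and KO (orange, n = 6 per group), as edgeR estimates with SE as error bars. Apol9b is highest at 6.22 in WT and 5.96 in KO, and Apol8 is lowest at 0.55 and 0.29. Apol9b in WT and Apol6 in both genotypes passed the filter only through the LPS libraries.

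The LPS response of the members was not shown to differ between the genotypes. In the interaction of genotype and LPS, 0 of 5 members tested were called by edgeR, 0 had an unadjusted p under 0.05, and voom with quality weights and DESeq2 also called 0. Over all genes edgeR called 0%. The interaction was -0.25 (SE 0.53) for Apol9b, -0.37 (SE 0.631) for Apol9a, -0.43 (SE 0.505) for Apol7c and 1.08 (SE 0.764) for Apol6 on the log2 scale. At rest, 0 of 4 members tested differed between KO and WT by edgeR, voom or DESeq2, with 0 at an unadjusted p under 0.05 and 0% of all genes called by edgeR. Differences in vehicle were 0.32 (SE 0.512) for Apol7c, 0.76 (SE 0.584) for Apol9a (0.46 without KO replicate 6), 0.51 (SE 0.459) for Apol9b (0.35 without it) and 0.12 (SE 0.438) for Apol8. These standard errors leave room for sizeable differences in either direction.

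CCM alone did not change the level of a member past the test. In WT, Apol7c stood at 0.661 ± 0.448 CPM with CCM against 1.03 ± 0.672 CPM in vehicle (SD, n = 3), Apol8 at 2.69 ± 0.308 against 2.98 ± 1.29 CPM, and Apol9a at 0.469 ± 0.168 against 0.466 ± 0.0209 CPM. Of the 3 members tested 0 were called by edgeR or voom, 0 had an unadjusted p under 0.05, and DESeq2 gave no adjusted p for them. Among all genes 0.057% were called. Apol9b, too low for the filter in these WT libraries, stood at 0.395 ± 0.347 CPM with CCM and 0.384 ± 0.15 CPM in vehicle (SD, n = 3). In KO, 0 of 4 members tested were called by edgeR, and voom and DESeq2 also called 0 members. Of these 4, 0 reached an unadjusted p under 0.05 with the main edgeR fit, voom or DESeq2, and that edgeR fit called 0% of all genes. Without KO replicate 6, edgeR called 141 of 13899 genes and 0 of the 3 members tested. Apol6, which did not pass the filter here, had 4, 5 and 10 counts in WT vehicle and 2, 0 and 0 counts in WT CCM libraries, but 0 to 8 counts in KO libraries of both groups.

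In KO the CCM libraries nonetheless stood below the vehicle libraries of the same number for several members. Apol7c was lower in 6 of 6 pairs, at 0% to 74.9% of vehicle with a median of 51.8%. Apol8 was lower in 6 of 6 pairs, at 49.2% to 83%, and Apol9a was lower in 6 of 6 pairs, at 18.5% to 85.3%. The groups overlapped for each of them. With the replicate block, which these KO libraries supported, log2 fold changes were -1.02 (SE 0.321) for Apol7c, -0.50 (SE 0.155) for Apol8 and -0.99 (SE 0.335) for Apol9a. Their edgeR adjusted p-values were 0.127, 0.119 and 0.156, with 429 genes called over the table and 0 of the members. Unadjusted p-values of that edgeR fit were 0.00822, 0.0073 and 0.0123 in the same order. Apol9b was lower in 4 of 6 pairs and higher in 2, and KO CCM replicate 6 stood at 3.34 CPM against 0.0692 to 0.576 CPM in the other 5 libraries. Its log2 fold change was 0.49 (SE 0.785) with that library and -0.82 (SE 0.51) without it.

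Under LPS, the comparison that chose the family, Apol7c was lower with CCM in each same-numbered pair. In KO the numbers did not pair all libraries of this comparison (r from -0.056 to 0.719), so KO percentages by number are only a description. WT libraries stood at 25.5, 17.4 and 21 CPM with LPS and at 7.86, 5.08 and 9.17 CPM with LPS+CCM, which is 30.9%, 29.2% and 43.7% of the LPS level. KO libraries with LPS+CCM ran from 6.48 through a median of 8.46 to 10.4 CPM, which is 36.1% to 58.3% of the LPS library of the same number. No LPS+CCM library reached the lowest LPS library of its genotype. The fitted log2 fold change was -1.52 (SE 0.198) in WT and -1.24 (SE 0.172) in KO, and it was -1.32 (SE 0.164) in KO without replicate 6. Apol7c with LPS+CCM stayed above vehicle, where WT libraries reached 1.76 CPM at most and KO libraries 2.24 CPM.

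The other 4 members that passed the filter had smaller fitted differences in the same comparison. Apol9b stood at 17.6, 17.2 and 18.8 CPM in WT LPS+CCM libraries, which is 57.9% to 62.6% of the paired LPS libraries, and the groups did not overlap. In KO it stood at 63.3% to 95.8% of LPS, with a median of 70.9%, and the groups overlapped. Apol9a stood at 62.8% to 68.4% of LPS in WT and at 54.7% to 106% in KO. Apol8 stood at 55.4% to 83.1% in WT and at 54% to 127% in KO, with overlap in both. Apol6 was lower in 2 of 3 WT pairs and 5 of 6 KO pairs, from counts of 5 to 31 per library. Fitted log2 fold changes in WT were -0.73 (SE 0.0799) for Apol9b, -0.63 (SE 0.129) for Apol9a, -0.70 (SE 0.438) for Apol6 and -0.41 (SE 0.285) for Apol8. In KO they were -0.46 (SE 0.29) for Apol9b, -0.48 (SE 0.287) for Apol9a, -0.98 (SE 0.412) for Apol6 and -0.41 (SE 0.317) for Apol8. Without KO replicate 6 they were -0.45 (SE 0.123), -0.39 (SE 0.158), -0.67 (SE 0.407) and -0.48 (SE 0.301) in the same order. Among the barely detected members, Apol7e had 4 to 6 counts per KO library with LPS and 0 to 5 with LPS+CCM, and Apol10b had 3 to 8 counts per WT library with LPS and 0 to 1 with LPS+CCM.

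**Figure D5:**
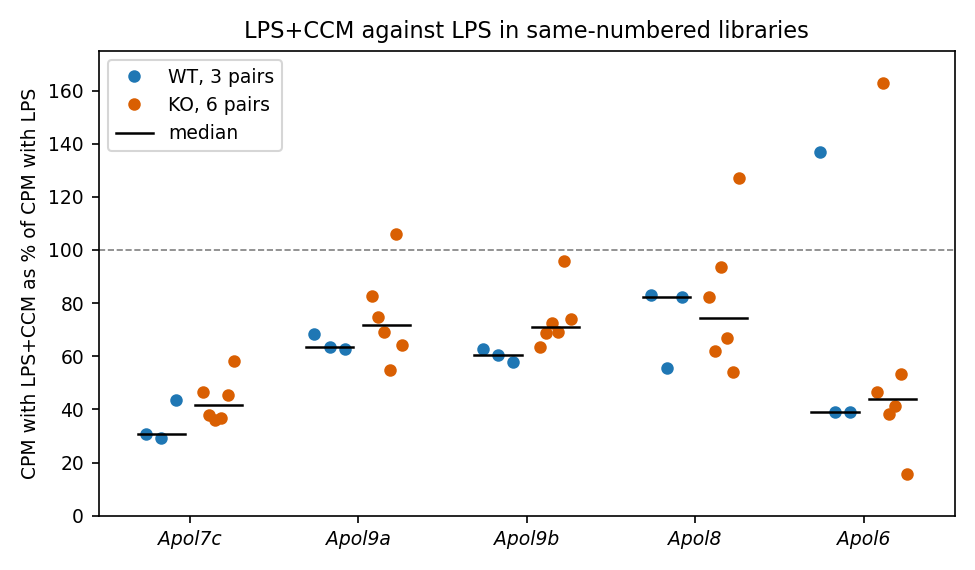
CPM with LPS+CCM as a percentage of CPM with LPS in the library of the same number (vertical axis, dashed line at 100%), for 5 apolipoprotein L genes in WT (blue, 3 pairs) and KO (orange, 6 pairs), with black lines at the medians. Apol7c has the lowest medians, 30.9% in WT and 41.6% in KO, and Apol6 has the widest spread. The KO pairs follow library numbers that did not pair all libraries of this comparison.

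Over all genes tested, 7.78% were called lower in WT and 0.105% in KO by edgeR. Without KO replicate 6, 128 of 13429 genes tested were called lower in KO. Because the choice of the family rests on this comparison, no calls of single members are given, and the closing count of members is not a result. With the replicate block, which paired the WT libraries here, 3220 rather than 1621 genes were called in WT. The family sum was 36.6 ± 4.16 CPM in WT LPS+CCM (SD, n = 3) and 47.8 ± 14.9 CPM in KO LPS+CCM (SD, n = 6; 41.8 ± 3.63 without replicate 6), and Apol7c supplied 19.9% ± 3.62 of it in WT against 31.2% ± 4.76 with LPS alone (SD, n = 3). As further descriptions, the interaction of LPS and CCM in WT was -0.85 (SE 0.616) for Apol7c, and it was -0.15 without WT CCM replicate 3 and -1.52 without WT vehicle replicate 3. For Apol7c the difference between KO and WT in the CCM effect under LPS was 0.31 (SE 0.298).

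Among the other 4 members tested, 0 were called by edgeR or voom in the LPS by CCM interaction in WT, where 2.09% of all genes were called and DESeq2 gave no adjusted p for them. The values were -0.64 (SE 0.332, adjusted p = 0.419) for Apol9a, -0.70 (SE 0.513, adjusted p = 0.616) for Apol9b and 2.02 (SE 1.05, adjusted p = 0.424) for Apol6. In the genotype by CCM interaction under LPS, 0 of these 4 were called by edgeR, voom or DESeq2 and 0% of all genes by edgeR, with values of 0.17 (SE 0.44) for Apol9a and 0.28 (SE 0.437) for Apol9b. None of these 4 had an unadjusted p under 0.05 by edgeR in either interaction.

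Gm8221, a neighbour at chr15:77621834-77626637 that shares sequence with Apol7c, moved alongside it. WT libraries held 1, 1 and 3 counts in vehicle, 53, 44 and 64 with LPS and 11, 4 and 15 with LPS+CCM. KO libraries held 0 to 2 counts in vehicle, 20 to 50 with LPS and 7 to 21 with LPS+CCM. With LPS its log2 fold change was 5.29 (SE 0.442, edgeR adjusted p = 2.99e-06) in WT and 5.20 (SE 0.456, edgeR adjusted p = 6.62e-07) in KO. Gm8221 passed the filter on low counts only through the LPS libraries, so that it was tested here goes with its being higher there. With LPS+CCM against LPS its log2 fold change was -2.19 (SE 0.399) in WT and -1.61 (SE 0.345) in KO, given as a description. How far its reads stem from Apol7c, or those of Apol7c from it, was not tested. Summing the counts of Apol7a, Apol7b, Apol7c and Apol7e left the LPS+CCM difference at -1.50 (SE 0.195) in WT and -1.24 (SE 0.168) in KO.

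Genes around the family were called in both directions. Of 66 genes within 500 kb of a member, 30 were tested in WT with LPS, and 10 were called higher, near the 30.6% of all genes, and 12 lower. In KO 28 were tested, and 4 were called higher, beside 22.4% of all genes, and 10 lower. Over all genes, 4698 of 14501 tested were called lower in WT and 3373 of 13648 in KO. The median log2 fold change was -0.12 in WT and -0.17 in KO beside -0.05 over all genes. Gm8221, which passed the filter only through the LPS libraries, is among those called higher in both genotypes. After Gm8221, the largest WT changes were -3.07 for the kinesin gene Kifc2, 1.97 for the zinc transporter gene Slc39a4, -1.95 for the helicase gene Recql4 and -1.89 for Foxred2. Myh9, the gene of a non-muscle myosin next to Apol8, stood at 0.03 (SE 0.062).

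The pathway lists give the setting of these values. Of 18 interferon-induced effectors, 18 were called higher with LPS in each genotype, and their median log2 fold change was 6.92 (WT) and 6.74 (KO). Examples in WT were Rsad2, an antiviral enzyme, at 8.56 and Isg15, a ubiquitin-like modifier, at 7.69. Of 12 genes of type I interferon signalling 11 were called higher in each genotype, among them the transcription factor Irf7 at 6.15 in WT and the receptor chain Ifnar1 at 0.93. Of 12 early NF-kB targets 12 were called higher in each genotype, among them the cytokine genes Il1b at 10.66 and Tnf at 6.18 in WT. Over all genes tested, 30.6% were called higher in WT and 22.4% in KO. With CCM against vehicle only 11 genes of the signalling list and 11 of the NF-kB list passed the filter. Not every gene of these lists was thus tested independently of its level with LPS. Of 13 apolipoproteins of other families, 2 were tested in WT and 3 in KO, and edgeR called 0, with 1 at an unadjusted p under 0.05 in WT and 0 in KO. DESeq2 called 1 lower in WT and 0 in KO, voom called 0 in WT and 1 higher and 1 lower in KO, and edgeR with the replicate block called 1 lower in each genotype. Apoe, which carries lipids out of macrophages, stood at -0.25 (SE 0.101, edgeR adjusted p = 0.0562) in WT.

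With LPS+CCM against LPS, 18 of 18 interferon-induced effectors, 6 of 12 signalling genes and 11 of 12 early NF-kB targets were called lower in WT, and 0 of each list were called in KO by edgeR. In KO 11, 5 and 4 genes of these lists had an unadjusted p under 0.05, DESeq2 called 5, 1 and 1 lower, and voom with quality weights called 11, 2 and 5 lower. Median log2 fold changes were -0.46, -0.32 and -0.46 in WT and -0.47, -0.31 and -0.41 in KO, beside 0.01 and 0.00 over all genes. Apol7c stood at -1.52 in WT and -1.24 in KO, and since it was chosen on this comparison, its place below these medians is not a result. Of the other filtered members, Apol6 (-0.70 in WT, -0.98 in KO) and Apol9a (-0.63, -0.48) lay below each median of their genotype. Apol9b did so in WT (-0.73) but not in KO (-0.46), and Apol8 (-0.41 in both) did so in neither. The KO values of Apol9a and Apol9b had SEs of 0.287 and 0.29, so their places beside these medians are uncertain. Without KO replicate 6, Apol9a stood at -0.39 (SE 0.158), above the KO medians of -0.47 and -0.41, which include that replicate. Ccl3, a chemokine gene of the NF-kB list, stood at -0.85 in WT and -0.58 in KO. With CCM alone, 0 genes of these lists were called by edgeR in either genotype. The median of the 18 interferon-induced effectors was -0.23 in WT, where 2 had an unadjusted p under 0.05 and DESeq2 and voom called 0, and -0.89 in KO, where 12 did, DESeq2 called 0 and voom called 1 lower. With the replicate block, which paired the KO libraries of that comparison, 7 of the 18 were called lower in KO.

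The members differed in their profiles across the 36 libraries. Pearson's r of log2 CPM was 0.97 between Apol9a and Apol9b, 0.95 between Apol7c and Apol9a, 0.92 between Apol7c and Apol9b, 0.52 between Apol7c and Apol8 and 0.15 between Apol6 and Apol8. The genes most like Apol7c among 15715 were Edn1, Maff and Col27a1, each at r = 0.96. Those most like Apol9b were F10, Oas1a and Nfkbib at 0.98, and those most like Apol9a were Ccl7, Ifitm3 and Ccl2 at 0.98. Apol6 was most like Ccl7 at 0.88, Pofut2 at 0.87 and Pla1a at 0.86, and Apol8 was most like Mmp1b at 0.78, Lpar2 at 0.76 and Gm20219 at 0.74. The 36 libraries share treatments, so these values are a description across groups and carry no test.

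Markers of other cells that BMDM cultures can hold were present at levels that differed between the lists. The summed level of 9 dendritic cell markers was 10.1 to 11 CPM in WT vehicle, 13.2 to 15.1 CPM in WT LPS and 8.95 to 11.8 CPM in WT LPS+CCM libraries, against 11 to 17.1 CPM in KO LPS and 9.75 to 19.3 CPM in KO LPS+CCM libraries. In WT this sum thus moved in the same direction as Apol7c, while in KO the groups overlapped. Across all libraries Batf3 reached 25.3 CPM, Ccr7 9.61 CPM and Xcr1 5.34 CPM, and the other markers of the list 2.08 CPM at most. The sum can therefore follow a few genes, and directions of single markers are not given here. Flt3 stood at 0 in 1 library, Xcr1, Itgae and Dpp4 in 2 each and Cd209a in 10 of the 36. Zbtb46, Clec9a, Batf3 and Ccr7 were counted in each library. The dendritic cell sum was 6.79 to 7.99 CPM in WT CCM, 9.19 to 27.3 CPM in KO vehicle and 6.54 to 29.9 CPM in KO CCM libraries. Among the other lists, 5 B cell markers summed to 1.32 to 10.4 CPM, 5 T cell markers to 1.03 to 9.29 CPM and 5 erythroid markers to 1.1 to 11.4 CPM across all groups. With LPS in WT the T cell sum moved from 1.19 to 2.21 CPM in vehicle to 3.84 to 5.66 CPM, and the neutrophil sum from 501 to 538 CPM to 391 to 433 CPM, in both cases without overlap. In KO the ranges overlapped, at 1.43 to 5.47 and 3.53 to 9.29 CPM for T cell markers and 437 to 990 and 328 to 1008 CPM for neutrophil markers. Over all groups the 8 neutrophil markers summed to 323 to 1023 CPM, the 6 fibroblast markers to 296 to 1660 CPM and the 5 endothelial markers to 29.8 to 189 CPM. The endothelial sum was 92.1 to 99.8 CPM in WT LPS and 69.2 to 77.4 CPM in WT LPS+CCM, and 80.3 to 98.3 CPM in KO LPS and 29.8 to 82.4 CPM in KO LPS+CCM. The part of these cells in the Apol values was not tested. In bulk RNA, fewer cells of a type and less RNA per cell cannot be told apart.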

How the data were processed

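RNA of 36 BMDM libraries was enriched with poly(T) beads and sequenced as paired ends. The authors trimmed reads with fastp, aligned them to mm10 with HISAT2 2.0.5 and counted them with featureCounts 1.5.0-p3, and they deposited the raw counts per gene, which are the values used here. They tested differences with DESeq2. Other values of the series were not used here, and 0 sample columns were left out.

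From the counts, edgeR was fitted separately to the groups of each comparison (version 4.0.16, R 4.3.3, filterByExpr, TMM, glmQLFTest, two-sided, Benjamini-Hochberg adjustment over all genes tested, threshold 0.05), with limma 3.58.1 and DESeq2 1.42.0 among the alternatives. CPM used TMM factors over 36 libraries, and log2 CPM a prior count of 2. Levels between genes were compared per kb. The scripts were tested on simulated data. Library totals of 13469262 to 28288923 counts leave 4 of 9 members near 0. Replicates differed beyond counting noise (lowest chi-square per degree of freedom 4.34 over 72 pairs). Nothing in the labels says that same-numbered KO cultures came from 1 animal. Same-numbered libraries deviated together in KO LPS against vehicle (r = 0.245 to 0.762), KO CCM against vehicle (0.259 to 0.795) and WT LPS+CCM against LPS (0.122 to 0.283), and there the numbers were taken to pair libraries. The choice rests on a cut on the lowest r of a comparison. WT LPS against vehicle (0.085 to 0.172) and WT CCM against vehicle (0.075 to 0.384) fell short of it, so pairing there stays undecided.

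The members, gene lists and tests were chosen with earlier results of these data known. The members, 6 other rows named Apol, Arntl, the 3 genes most like each filtered member, up to 5 neighbours within 500 kb with the largest WT LPS change and up to 4 genes of each list with the highest mean CPM were named by rule. Myh9 was named after its values were seen, as were values of the Apol9b to Apol9a ratio. The LPS and CCM comparisons of a genotype share its vehicle libraries. Where replicates are not from separate animals, p-values cover the spread between these samples, which may be technical.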

Additional observations from a re-analysis of the deposited data

Results flagged for a closer look

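In 20 sets of 6 KO libraries (5 members in 4 treatments), 5 held a library farther from its neighbours than Dixon's 95% critical value for the gap over the range, and each was KO replicate 6. Chance sets apart about 1 group in 20. Apol9b stood at 63.6 CPM with LPS, 47 CPM with LPS+CCM and 3.34 CPM with CCM in that replicate, against next values of 33.3, 24.2 and 0.576 CPM. Apol9a stood at 26.9 CPM with LPS against 14 CPM, and Apol6 at 0.581 CPM with CCM against 0.142 CPM. The 18 interferon-induced effectors summed to 19416 CPM in that LPS library, within the 16786 to 21665 CPM of the other 5. In the CCM library they summed to 522 CPM against 272 to 348 CPM. Their sum was 15600 CPM against 11910 to 15294 CPM in the LPS+CCM library, and 534 CPM against 324 to 476 CPM in the vehicle library. Without replicate 6, the KO LPS mean was 28.6 ± 3.74 CPM for Apol9b and 11.6 ± 1.41 CPM for Apol9a (SD, n = 5). The cause was not tested.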

How the results depend on the processing

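Of 654 tested values of single members under an alternative, 620 kept their direction and side of the threshold, 2 passed it only in the alternative, and 32 changed sign, 0 of which had been called. Of 210 values given without a test, 0 changed sign. The number of members at an adjusted p of at most 0.05 with LPS+CCM against LPS, which follows from the choice of the family and is not a result, went from 3 to 0 in WT and from 1 to 0 in KO when all 36 libraries entered 1 fit, and in KO they were 4 with voom and quality weights. With the replicate block they were 2 in KO, where the numbers did not pair all libraries (r from -0.056 to 0.719), and leaving out 1 library gave 0 to 1 (0 without KO LPS replicate 1, KO LPS+CCM replicate 2 or KO LPS+CCM replicate 4). Genes called over the table also moved: WT LPS from 9139 to 5644 in the fit of 36 libraries, KO LPS from 6433 to 9774 with the block, WT CCM from 8 to 0 to 377, KO CCM from 0 to 429, WT LPS+CCM from 1621 to 17 to 3220, KO LPS+CCM from 15 to 3 to 777, and LPS by CCM in WT from 308 to 0 to 721. Log2 values that changed sign were as follows. With total counts alone, Apol8 was -0.09 for KO LPS and -0.06 for genotype by CCM under LPS. With voom, Apol9a was 0.09 for WT CCM and Apol9b was -0.55 for KO CCM. In the fit of 36 libraries Apol9a was 0.01 for WT CCM. With the replicate block, Apol9b was -0.08 for KO CCM, and KO against WT in vehicle was -0.08 for Apol7c, -0.09 for Apol8, -0.36 for Apol9a and -0.17 for Apol9b. Apol9a and Apol9b summed gave -0.17 for KO CCM. Leaving out libraries, WT CCM ran from -0.42 to 0.22 for Apol8 and from -0.19 to 0.27 for Apol9a, and KO CCM from -0.82 to 0.79 for Apol9b. KO against WT in vehicle ran from -0.02 to 0.97 for Apol7c and from -0.14 to 0.51 for Apol8. LPS by CCM in WT ran from -0.64 to 0.02 for Apol8 and from -1.15 to 0.26 for Apol9b. Genotype by CCM under LPS ran from -0.60 to 0.20 for Apol6, from -0.27 to 0.27 for Apol8 and from -0.05 to 0.46 for Apol9a. The block changed 1 further call, Apol8 with LPS in WT, to 0.61 (edgeR adjusted p = 0.0215). There r of same-numbered libraries ran from 0.085 to 0.172 and fell short of the cut for pairing. The Apol9b to Apol9a log2 ratio difference, an alternative set chosen after seeing the data, ran from 1.45 to 1.97 in WT and from 1.5 to 1.85 in KO without 1 library. DESeq2 gave no adjusted p for members in WT CCM and in LPS by CCM in WT. The cause of these shifts was not tested. Depth limits Apol7a, Apol7b, Apol7e and Apol10b, with 26 to 105 counts each over 36 libraries.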
